A study of Mus musculus with 2 samples.

Results

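The 50 potassium channel genes described here are the genes with a symbol starting in Kcn that were listed for both libraries, without Kcnj10 and Kcnj13, out of 12744 genes listed for both. The rule used the symbols alone and no measured value. Of the 50, 20 encode voltage-gated pore subunits, 6 their auxiliary subunits, 7 calcium- or sodium-activated pore subunits, 1 an auxiliary subunit of the calcium-activated kind, 7 inward rectifiers and 8 two-pore domain channels, and 1 (Kcnq1ot1) is a non-coding antisense RNA. Each gene was placed in the cell class that held its highest level, and the GlaKO level was then set against the wt level within that class.

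The study profiled single cells of the hippocampus of mice aged 57 weeks, a model of Fabry disease. The GlaKO mice carry an inactivated Gla, the gene of the lysosomal enzyme alpha-galactosidase A, and the wt mice were their littermates. No Cre or transgene is named in the labels, and both groups were anaesthetised, perfused, dissociated with enzymes and sorted for live cells in the same way. There was 1 library per genotype and the number of animals behind each is not given, so no test of genotype was possible: each difference below is one between 2 libraries, and each interval is a 95% interval for counting error alone.

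Potassium channels let potassium leave or enter a cell along its gradient and so set the resting voltage and end the action potential. Voltage-gated and calcium-activated channels open in response to activity, inward rectifiers and two-pore domain channels carry much of the resting current, and auxiliary subunits change the gating and surface level of the pore subunits. In the brain, neurons use many of them at once, glia use inward rectifiers and leak channels to buffer potassium, and the choroid plexus, which secretes cerebrospinal fluid, recycles potassium across its surface.

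The libraries held 31929688 unique molecular identifiers (UMIs, counted transcripts) over 5443 wt barcodes and 29914106 over 4572 GlaKO barcodes, with medians of 5054 and 6101 UMIs per barcode, and they shared 6 barcodes. Gla itself had 396 UMIs in the wt library, 12.4 CPM (counts per 1000000 UMIs), and 219 in the GlaKO library, 7.44 CPM, a log2 ratio of -0.74 (interval -0.99 to -0.50). Since the reads come from transcript ends, which the altered allele may still make, this level does not check the genotype. Clustering without any Kcn gene gave 22 clusters, all named from markers, in 12 classes, of which 7 had at least 100 cells in each library and were compared. Choroid plexus epithelium made up 48.1% of the wt cells and 17.8% of the GlaKO cells, so levels were compared only within classes.

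More channel genes peaked in neurons than in any other class, as the map of levels by class shows. A class is said here to hold a gene if the gene's CPM was highest there in both libraries, with at least 10 UMIs in each. By that rule 47 of the 50 genes had a holding class: neurons held 25, oligodendrocyte precursors 7, astrocytes 6, oligodendrocytes 3, microglia 3, choroid plexus epithelium 2 and pericytes 1. The matching split of all genes listed for both libraries was not counted. For 36 of the 47 the level in the holding class exceeded the next class beyond counting error in both libraries. By this measure few channels were confined to their class. The next class stood under 10% of the holding class in both libraries for 8 genes, and at 50% or more in at least 1 library for 14. Classes were ranked from 10 cells up, and in a small class a few UMIs make a high level. The counts of 36, 8 and 14 therefore depend partly on small classes. For Kcng2 in GlaKO the next class was pericytes, at 22.4 CPM in 14 cells, or 27.3% of the neuronal level. Neurons held 89.7% of its wt and 94.2% of its GlaKO UMIs.

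**Figure D1:**
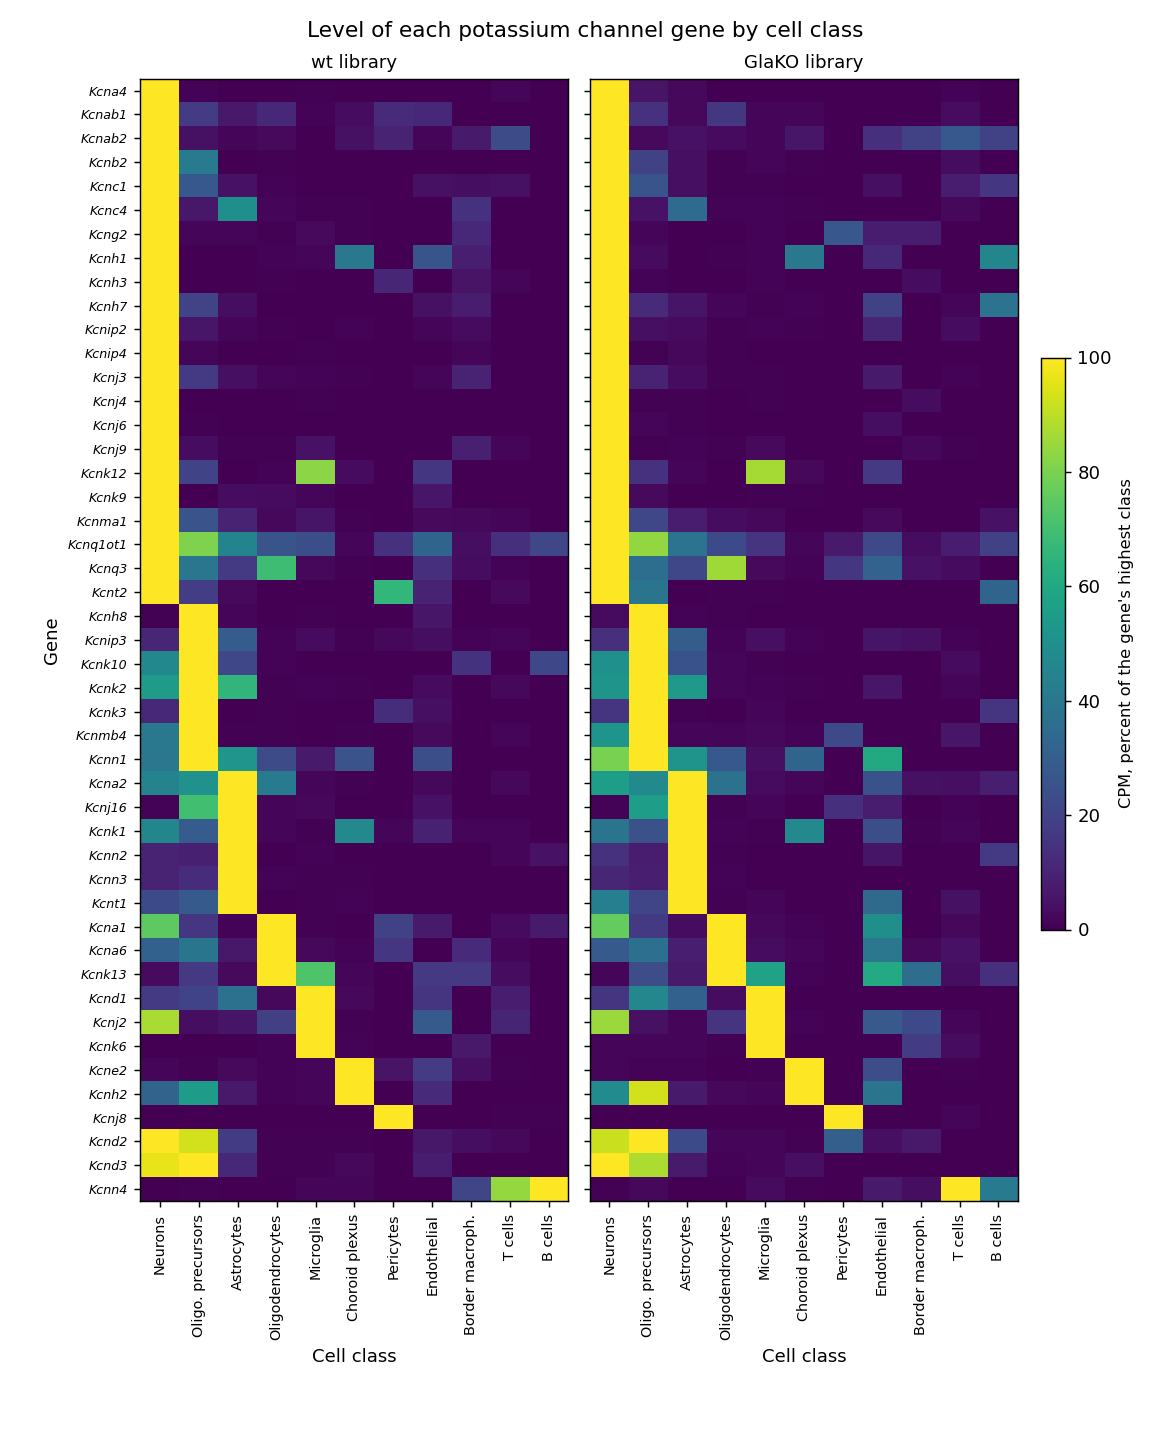
Level of 47 of the 50 channel genes (vertical axis) in 11 cell classes (horizontal axis) in the wt and the GlaKO library, as a percentage of the gene's own highest class among those shown (ependymal cells, 6 and 7 in the libraries, are not shown). The block of 22 genes at the top peaks in neurons, and the 3 genes at the bottom (Kcnd2, Kcnd3 and Kcnn4) peak in a different class in each library.

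The largest block of neuronal genes encodes voltage-gated pore subunits, 12 of the 25. Among them Kcnq3, a subunit of the slow M-current that steadies excitability, had 284 UMIs (145 CPM) in wt neurons and 388 (140 CPM) in GlaKO neurons, a log2 ratio of -0.05 (-0.28 to 0.17). It was also present in oligodendrocytes, at 100 and 120 CPM, with a log2 ratio of 0.26 (0.10 to 0.41). Kcnc1, a fast-closing channel that allows rapid firing, was higher in GlaKO neurons: 249 UMIs (127 CPM) in wt and 436 (158 CPM) in GlaKO, a log2 ratio of 0.31 (0.08 to 0.54). Its level in oligodendrocyte precursors was 27.3% and 25.9% of the neuronal one, whereas the summed neuron markers stood there at 3.23% and 3.28% of theirs.

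Kcng2 went the other way. It encodes a subunit that forms no channel alone and modifies other voltage-gated channels, and it had 235 UMIs (120 CPM) in wt and 227 (82.1 CPM) in GlaKO neurons, a log2 ratio of -0.55 (-0.82 to -0.28). For 6 further voltage-gated genes held by neurons (Kcna4, Kcnb2, Kcnc4, Kcnh1, Kcnh3 and Kcnh7) the intervals included equal levels. Their ratios ran from 0.00 for Kcna4, an A-type channel with 88.1 and 88.2 CPM, to 0.27 for Kcnc4, a relative of Kcnc1 with 65.5 and 79.2 CPM.

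Of the 4 auxiliary subunits held by neurons, 2 were lower in the GlaKO library. Kcnip4, a calcium-binding partner of Kv4 channels, had 519 UMIs (266 CPM) in wt and 644 (233 CPM) in GlaKO neurons, a log2 ratio of -0.19 (-0.36 to -0.02). Kcnip2, of the same family, had 156 and 122 CPM (-0.36, -0.59 to -0.13). The cytoplasmic beta subunits of Kv1 channels were near level, Kcnab2 with 193 and 188 CPM (-0.03) and Kcnab1 with 75.3 and 79.2 CPM (0.07). The Kv4 pore subunits that KChIP proteins bind had no holding class. Kcnd2 stood at 131 and 136 CPM in neurons and at 122 and 148 CPM in oligodendrocyte precursors, and Kcnd3 at 70.1 and 66.5 CPM and at 72.4 and 58.2 CPM. Their neuronal ratios of 0.06 and -0.08 had intervals that included equal levels.

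The inward rectifiers of neurons include the G-protein-gated family, which slows firing when inhibitory receptors are active. Kcnj9 was higher in GlaKO neurons, with 207 UMIs (106 CPM) in wt and 411 (149 CPM) in GlaKO, a log2 ratio of 0.49 (0.24 to 0.74). Kcnj3 was higher by less, at 146 and 170 CPM (0.22, 0.01 to 0.44). Kcnj6, the remaining member of the family listed here, had 190 and 175 CPM (-0.12, -0.32 to 0.08). Kcnj4, a strong rectifier of a different subfamily, had 99.8 and 103 CPM (0.05). All 4 were scarce outside neurons: the next class held at most 16.9% of the neuronal level, the value of Kcnj3 in wt oligodendrocyte precursors.

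Calcium- and sodium-activated channels of neurons went opposite ways. Kcnma1, the large-conductance channel opened by calcium and voltage together, had 422 UMIs (216 CPM) in wt and 718 (260 CPM) in GlaKO neurons (0.26, 0.09 to 0.44). Kcnt2, a sodium-activated channel, had 109 UMIs (55.8 CPM) and 107 (38.7 CPM), a log2 ratio of -0.53 (-0.93 to -0.13). The leak channel Kcnk9 was higher at 44.5 and 60.7 CPM (0.45, 0.07 to 0.84), and Kcnk12, a two-pore gene that was nearly as high in microglia, had 35.3 and 38.0 CPM (0.10). Kcnq1ot1, the long RNA antisense to Kcnq1 that takes part in imprinting, had 257 and 313 CPM (0.29, 0.13 to 0.45), or 0.08 with the clusters of neurons weighted equally. It overlaps Kcnq1 on the opposite strand at chr7:143203458-143296549 (GRCm38, the mm10 build), and the strand setting of the counting is not given in the sources used here.

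Counted over the 25 genes that neurons held, 16 ratios were above equal, 7 exceeded equal levels by their interval, 4 lay below by their interval, and 14 intervals included equal. None of the 25 passed 1.5-fold. Among all 7797 genes tested in neurons (at least 100 UMIs over both libraries), 10.3% lay above and 9.40% below equal levels by interval, and 2.39% were higher and 1.59% lower past 1.5-fold. The median log2 ratio of the 25 was 0.07, and 0.10 over all 37 channel genes tested in neurons, beside a median of -0.00 for all genes tested. Of those 37, the gene past 1.5-fold was Kcna2, which astrocytes held: it had 55.8 CPM in wt and 83.9 CPM in GlaKO neurons (0.59, 0.25 to 0.93). Within the clusters of neurons its ratios were smaller and their intervals included equal levels, 0.20 (-0.25 to 0.66) in granule neurons and 0.43 (-0.11 to 1.01) in cluster 18, a small cluster led by Neurod6, which held the highest level and a larger share of the GlaKO neurons. By interval, 7 and 4 of 25 are larger shares than the background ones, in both directions, and this was not tested; past 1.5-fold, 0 of 25 is no larger.

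**Figure D2:**
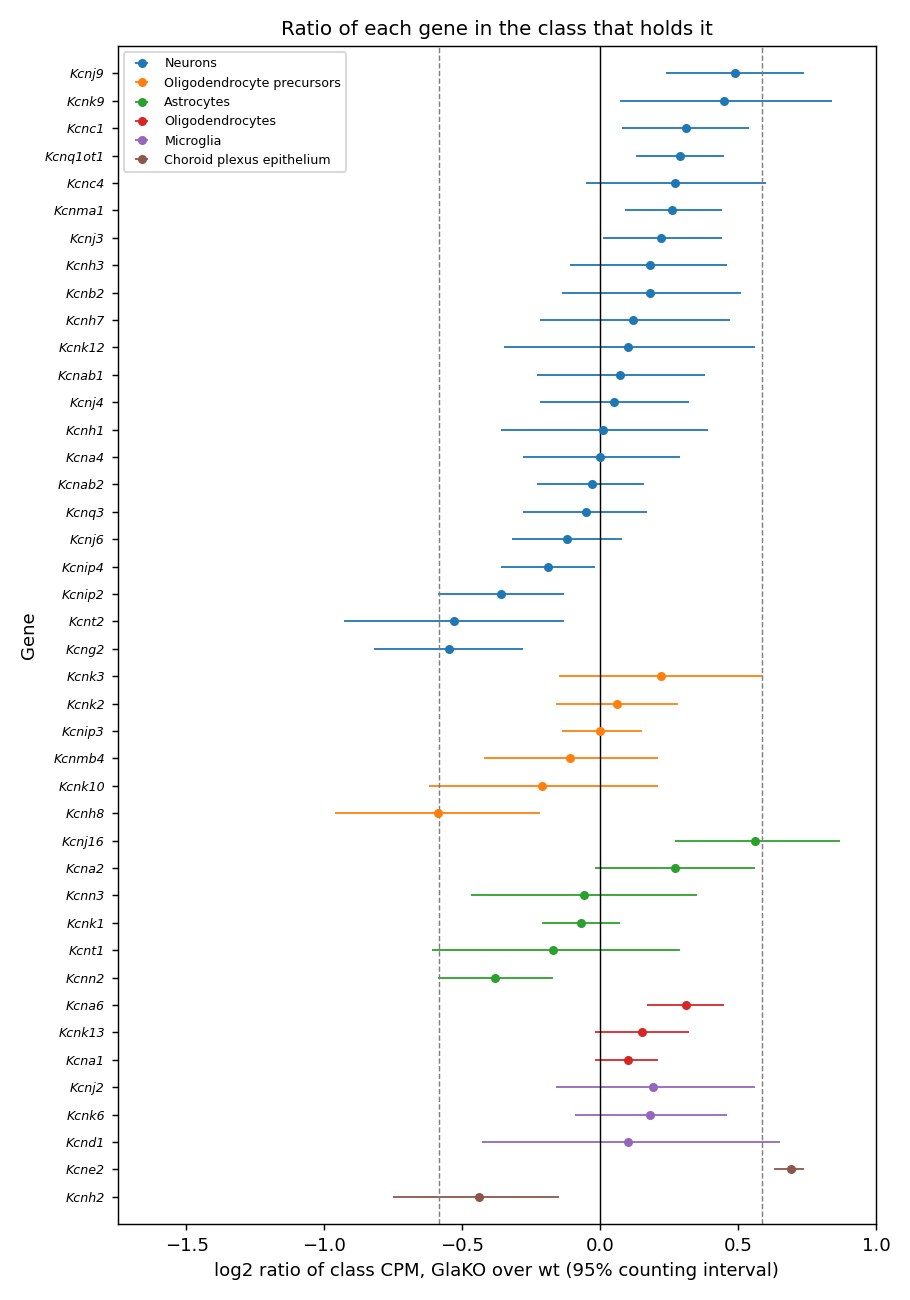
Log2 ratio of class CPM, GlaKO over wt (horizontal axis), for 42 of the 45 channel genes that could be compared in their holding class (vertical axis, coloured by class); bars are 95% counting intervals and dashed lines mark 1.5-fold. Kcne2 lies past the upper line at 0.69 and Kcnh8 at the lower one at -0.59.

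The neurons fell into 3 clusters whose shares differed between the libraries. Cluster 14 carried dentate granule markers and made up 72.2% of wt and 64.4% of GlaKO neurons, cluster 11 carried Cajal-Retzius markers (16.6% and 13.9%), and cluster 18 was led by genes such as Neurod6 and Sv2b, was left without a subtype name and made up 11.2% and 21.7%. Of the 25 genes, 13 were highest in the granule cluster in both libraries, 5 in cluster 18 and 2 in the Cajal-Retzius cluster, while 5 peaked in different clusters. Only 4, 1 and 0 of these exceeded the next cluster beyond counting error in both libraries. The matching split of all genes was not counted. Within neurons Kcng2 lay mainly in the granule cluster, at 162 and 118 CPM there against 14.8 and 20.8 CPM in cluster 18, and its log2 ratio within the granule cluster was -0.46 (-0.74 to -0.19). Kcnj6 lay mainly there as well, at 244 and 232 CPM against 74.0 and 96.7 CPM in cluster 18.

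Other genes had unlike ratios in granule neurons and in cluster 18, and these differences between clusters were not tested. Kcnc1 was level within granule neurons (149 and 151 CPM, 0.01) and higher in cluster 18 (129 and 241 CPM, 0.90). Kcnma1 was near level in granule neurons, at 220 and 228 CPM, and stood at 296 and 418 CPM in cluster 18. Kcnk9 had a ratio of 0.19 (-0.27 to 0.66) in granule neurons and 1.20 (0.27 to 2.28) in cluster 18, the latter from 11 and 63 UMIs. Kcnip4 went opposite ways, lower in granule neurons (338 and 279 CPM, -0.28, -0.46 to -0.09) and higher in cluster 18 (118 and 207 CPM, 0.80, 0.24 to 1.41). With the clusters given equal weight its ratio over neurons was 0.05. Kcnh7, an Erg-type channel, had 165 and 156 CPM in Cajal-Retzius neurons and 144 and 150 CPM in cluster 18, against 25.2 and 18.8 CPM in granule neurons. Kcnk2, a mechanically gated leak channel, was highest in Cajal-Retzius neurons, with 321 and 259 CPM against 170 and 165 CPM in cluster 18 and 59.5 and 61.0 CPM in granule neurons.

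**Figure D3:**
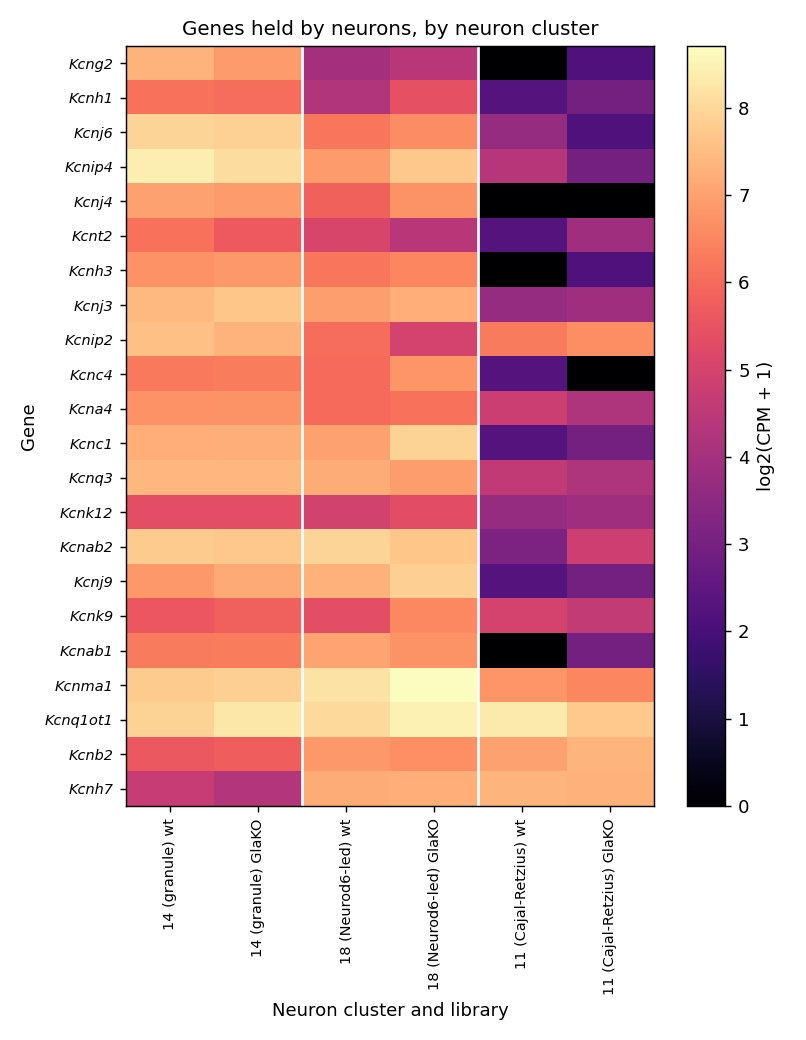
Level of 22 of the 25 genes held by neurons (vertical axis) in the 3 neuron clusters of each library (horizontal axis), as log2(CPM + 1). Kcng2, Kcnh1 and Kcnj6 at the top are high in the granule cluster, and Kcnb2 and Kcnh7 at the bottom are higher in the clusters to its right.

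Choroid plexus epithelium held 2 channel genes, and 1 of them was the single channel gene higher past 1.5-fold in its holding class. Kcne2 (chr16:92292389-92298129, plus strand) encodes a small single-span subunit that sits beside Kcnq1 and other pores, and its loss in mice is known to alter choroid plexus transport. It had 6362 UMIs in 2608 wt cells (348 CPM) and 4160 UMIs in 802 GlaKO cells (561 CPM), a log2 ratio of 0.69 (0.63 to 0.74), or 1.61-fold. The class held 98.7% of all wt and 97.6% of all GlaKO UMIs of the gene. In this class 5.15% of the 9436 genes tested were higher and 2.64% lower past 1.5-fold, 24.1% lay above and 11.8% below equal levels by interval, and the median log2 ratio of all genes was 0.06.

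The libraries differed in more than Kcne2 here. A choroid plexus cell had a median of 5866 UMIs with 2.46% mitochondrial UMIs in wt and 8611 with 1.20% in GlaKO, and the largest cluster was cluster 2 in wt (788 cells) and cluster 6 in GlaKO (315 cells). The 8 choroid markers present in both libraries summed to 15900 and 14300 CPM. In each of the 4 larger clusters Kcne2 was higher in GlaKO: 534 and 873 CPM in cluster 2 (0.71), 373 and 677 in cluster 3 (0.86), 272 and 475 in cluster 6 (0.80), and 174 and 258 in cluster 8 (0.57). In 5 groups of cells matched by UMI depth, the ratio ran from 0.65 to 0.98. These values stand beside 0.69 over the class, and the part of depth, mitochondrial share and other differences between the libraries in it was not tested further.

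Kcne2 was found in 80.1% of wt and 92.8% of GlaKO choroid plexus cells. With each cell thinned to 1000 UMIs the shares were 29.8% (28.0 to 31.6, exact binomial interval) and 43.9% (40.4 to 47.4). Microglia, which should lack the gene, had it in 0.449% and 0.277% of thinned cells, at median depths before thinning of 5372 and 6423 UMIs. The next class by level was the endothelial cluster, at 61.0 and 133 CPM, and that cluster also carried choroid plexus markers at a summed 3190 and 6030 CPM.

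Kcnh2, the Erg channel also known from the heart, was lower in the GlaKO choroid plexus, with 409 UMIs (22.4 CPM) and 122 (16.5 CPM), a log2 ratio of -0.44 (-0.75 to -0.15). The choroid plexus was not clearly its class: oligodendrocyte precursors stood at 54.9% and 93.7% of that level. By cluster the ratio excluded equal levels only in cluster 3 (-0.88, -1.58 to -0.24). It was -0.14 (-0.62 to 0.32) in cluster 2 and -0.09 (-0.69 to 0.48) in cluster 6, and cluster 8 was given no ratio. In the 5 groups of cells matched by UMI depth it ran from -0.45 to 0.17, and every interval included equal levels. The part of cluster mix and depth in the lower level over the class was not tested. With cells thinned to 1000 UMIs the ratio was 0.26, from 57 and 21 UMIs. The interval of that ratio, -0.54 to 1.01, included equal levels. Kcnk1, a weak leak channel held by astrocytes, was also abundant in the choroid plexus at 271 and 259 CPM (-0.06, -0.14 to 0.01). Within the 4 larger clusters its ratio was above equal each time, between 0.06 and 0.10, while over the class it was below. Kcnh1 had 21.6 and 21.8 CPM over the class, but 0.62 (0.21 to 1.02) in cluster 2 and -0.63 (-1.21 to -0.08) in cluster 6. The 7 channel genes tested in the choroid plexus had a median log2 ratio of 0.08. For comparison, Kcnj13, an inward rectifier of this epithelium left out by the rule, stood at 827 CPM in wt and 581 CPM in GlaKO.

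**Figure D4:**
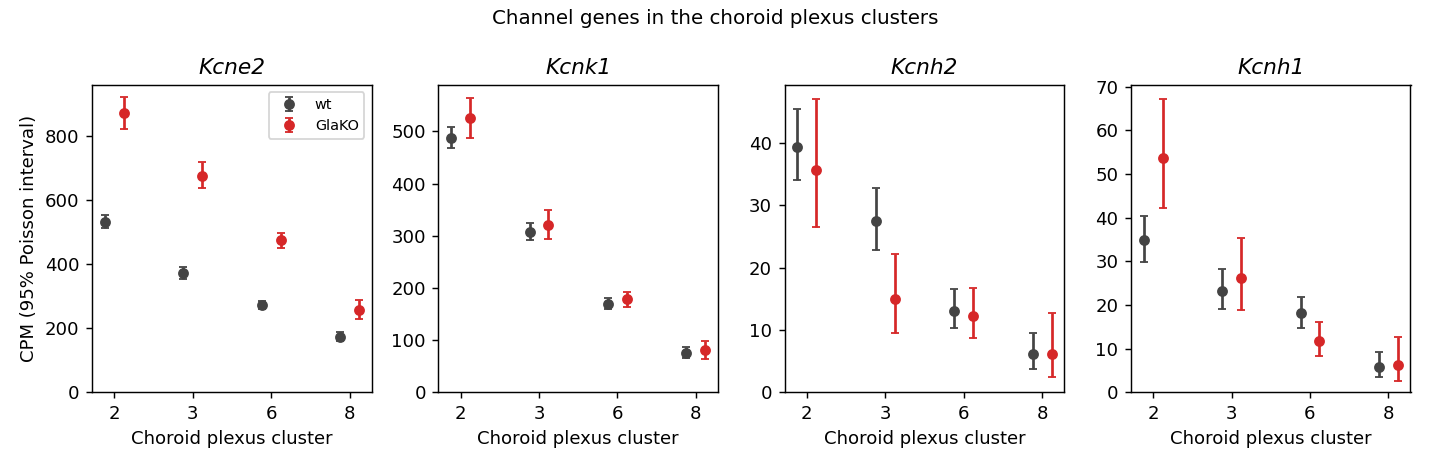
CPM of Kcne2, Kcnk1, Kcnh2 and Kcnh1 (vertical axes, each from 0) in the 4 larger choroid plexus clusters (horizontal axis) of the wt and GlaKO libraries, with 95% Poisson intervals. Kcne2 is higher in GlaKO in all 4 clusters, the Kcnk1 points lie close together, and every gene is lowest in cluster 8.

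Oligodendrocyte precursors held 7 channel genes, among them the single gene lower past 1.5-fold in its holding class. Kcnh8 (chr17:52602709-52979194, plus strand), an Elk-type voltage-gated channel, had 128 UMIs (92.7 CPM) in 375 wt cells and 124 UMIs (61.7 CPM) in 449 GlaKO cells, a log2 ratio of -0.59 (-0.96 to -0.22). Its linear ratio of 0.666 lay just past the threshold, and the class held 92.8% and 92.5% of its UMIs. In the 2 clusters of the class the ratio was -0.25 in cluster 9 (127 and 107 CPM) and -0.77 in cluster 15 (66.6 and 38.9 CPM, -1.36 to -0.19). At 1000 UMIs per cell Kcnh8 was seen in 8.27% of wt and 6.68% of GlaKO precursors (intervals 5.69 to 11.5 and 4.55 to 9.40) and in 0 of 849 and 0 of 1340 oligodendrocytes. Counts of 0 there allow a share of cells with a UMI of up to 0.434% and 0.275% by exact binomial intervals at that depth, which does not limit the share of cells expressing the gene.

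The other genes held by precursors had intervals that included equal levels. Kcnip3, a calcium sensor that is both a Kv4 partner and a transcriptional repressor, had 632 UMIs (458 CPM) in wt and 922 (459 CPM) in GlaKO, a log2 ratio of 0.00 (-0.14 to 0.15). The two-pore genes Kcnk2 (199 and 207 CPM, 0.06), Kcnk3 (70.2 and 81.6 CPM, 0.22) and Kcnk10 (63.7 and 55.2 CPM, -0.21) carry leak current. Kcnmb4, the neuronal-type auxiliary subunit of Kcnma1, had 109 and 101 CPM (-0.11), while its partner pore was held by neurons. Kcnn1, a small-conductance calcium-activated channel, had 16 and 21 UMIs there (11.6 and 10.4 CPM), too few to compare.

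Against the background, 2.09% of the 6883 genes tested in precursors were higher and 1.29% lower past 1.5-fold, and 7.31% and 6.25% lay above and below equal levels by interval. Of the 20 channel genes tested there, 1 was higher and 1 lower past 1.5-fold (the lower one Kcnh8), and 2 lay above and 2 below by interval. Their median was 0.12, beside 0.00 for all genes. Intervals also excluded equal levels for Kcnq1ot1, with 207 and 262 CPM (0.34, 0.13 to 0.55), and Kcnk1, with 167 and 137 CPM (-0.29, -0.55 to -0.03). Kcnk1 was likewise lower in GlaKO neurons, at 264 and 211 CPM (-0.32, -0.50 to -0.15), and near level in astrocytes.

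Astrocytes held 6 channel genes. Kcnj16, which pairs with Kcnj10 in a pH-sensitive inward rectifier, was higher in GlaKO: 145 UMIs (110 CPM) in wt and 270 (162 CPM) in GlaKO, a log2 ratio of 0.56 (0.27 to 0.87), just under 1.5-fold. Its partner Kcnj10, outside the set, stood at 308 and 415 CPM in the same cells. Kcnn2, a small-conductance calcium-activated channel, was lower, with 375 UMIs (283 CPM) and 363 (218 CPM) and a log2 ratio of -0.38 (-0.59 to -0.17). The remaining 4 had intervals that included equal levels: Kcnk1 at 576 and 550 CPM (-0.07, -0.21 to 0.07), the axonal Kv1 channel Kcna2 at 125 and 151 CPM (0.27, -0.02 to 0.56), Kcnn3 at 69.5 and 66.6 CPM (-0.06) and the sodium-activated Kcnt1 at 61.2 and 54.6 CPM (-0.17). In astrocytes 2.40% of 5533 genes were higher and 1.23% lower past 1.5-fold, and 6.80% and 6.07% lay above and below by interval. The 9 channel genes tested had 0 past 1.5-fold, 1 above and 1 below by interval, and a median of -0.06 beside -0.01.

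Oligodendrocytes held the neighbouring Kv1 genes Kcna1 and Kcna6, which lie 61944 bases apart on the minus strand of chromosome 6 (chr6:126640397-126646384 and chr6:126708329-126740674). Kcna6 was higher in GlaKO, with 570 UMIs (115 CPM) in 849 wt cells and 1294 (143 CPM) in 1340 GlaKO cells, a log2 ratio of 0.31 (0.17 to 0.45). Its ratio was 0.31 and 0.32 in the 2 oligodendrocyte clusters. Kcna1, known from the axon beside the node of Ranvier, had 936 UMIs (190 CPM) and 1836 (203 CPM), a log2 ratio of 0.10 (-0.02 to 0.21), and neurons stood at 75.3% and 76.4% of that level. Kcnk13, a leak channel shared with microglia, had 83.9 and 93.1 CPM (0.15, -0.02 to 0.32).

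All 7 channel genes tested in oligodendrocytes were above equal, 3 of them by interval (Kcna6, Kcnq3 and Kcnab1), with a median of 0.15 beside 0.03 for all 8626 genes tested. None passed 1.5-fold. In the class 1.67% of genes were higher and 1.22% lower past 1.5-fold, and 12.2% and 8.13% lay above and below by interval. Kcnab1, a beta subunit of Kv1 channels, rested on 43 and 116 UMIs (8.71 and 12.8 CPM, 0.56, 0.04 to 1.10).

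Microglia held 3 genes, none of which differed beyond counting error. Kcnk6, a weak two-pore channel, was nearly confined to them: the class held 92.1% and 94.9% of its UMIs, with 163 (66.8 CPM) in 445 wt cells and 356 (75.6 CPM) in 721 GlaKO cells, a log2 ratio of 0.18 (-0.09 to 0.46). Kcnj2, the classical inward rectifier of microglia, had 39.3 and 45.0 CPM (0.19, -0.16 to 0.56), and neurons stood at 87.2% and 85.1% of it. Kcnd1, a Kv4 pore subunit, had 18.0 and 19.3 CPM (0.10, -0.43 to 0.65). Kcnk13, the leak channel linked to inflammasome activation in these cells, had 60.7 and 53.7 CPM in microglia (-0.17, -0.47 to 0.13). The 7 channel genes tested there had a median of 0.18 beside -0.02, with 0 past 1.5-fold and 1 below by interval, Kcnq1ot1 at 61.5 and 48.4 CPM (-0.34, -0.65 to -0.04). The shares among all 7128 genes were 2.20% higher and 1.52% lower past 1.5-fold, and 7.32% and 8.73% by interval.

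In small classes only levels can be given. Kcnj8, the pore of the ATP-sensitive channel of vascular mural cells, marked pericytes at 2230 CPM in 33 wt cells and 2090 CPM in 14 GlaKO cells. The next classes, B cells in wt and T cells in GlaKO, stood at 13.8 and 33.8 CPM. Kcnn4, the calcium-activated channel of lymphocytes, was highest in T cells in GlaKO (89.6 CPM) and in B cells in wt, where 8 UMIs in 13 cells made 110 CPM and came from 1 cell. In T cells it had 68 UMIs (92.8 CPM) and 106 (89.6 CPM), a log2 ratio of -0.05 (-0.50 to 0.41), and it was the single channel gene tested there. Among all 2512 genes tested in T cells, 6.13% were higher and 1.59% lower past 1.5-fold, and 12.6% and 7.25% lay above and below by interval.

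Over the 45 genes that could be compared in their holding class, 26 ratios were above and 17 below equal after rounding to 2 decimals. Kcna4 in neurons and Kcnip3 in oligodendrocyte precursors, both at 0.00, are in neither count. The count of 16 given above for neurons was made before rounding and includes Kcna4. By interval 10 were above and 7 below, and 28 intervals included equal levels. In the 6 classes that held these genes, between 6.80% and 24.1% of all genes tested lay above and between 6.07% and 11.8% below by interval, and differences between families were not tested. By family, 5 of 6 inward rectifiers were above equal, 3 by interval (Kcnj9, Kcnj3 and Kcnj16), with a median log2 ratio of 0.21. Of 8 two-pore genes 6 were above, 1 by interval, with a median of 0.12. Of 5 calcium- or sodium-activated genes 4 were below, 2 by interval (Kcnn2 and Kcnt2), with a median of -0.17. The 18 voltage-gated genes had 3 above and 3 below by interval and a median of 0.10, and the 6 auxiliary genes had 1 above (Kcne2) and 2 below (Kcnip2 and Kcnip4) and a median of -0.01.

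Of 20 listed genes whose proteins bind or place potassium channels, 14 were present in both libraries and all 14 were tested in neurons. There 2 were higher past 1.5-fold and 0 lower, 4 were above and 0 below by interval, and their median was 0.07. Among all genes tested in neurons, 2.39% were higher past 1.5-fold and 10.3% were above by interval. Dpp10, a membrane partner of Kv4 channels, had 17.4 and 40.1 CPM (1.21, 0.64 to 1.80), and Cntn2, which gathers Kv1 channels beside the node, 21.0 and 32.2 CPM (0.62, 0.07 to 1.19). Cntn2 was far higher in oligodendrocytes, at 613 and 663 CPM (0.11). The summed oligodendrocyte markers stood in neurons at 0.980% and 2.21% of their own-class level. The part of such carried-over transcripts in the neuronal ratio of Cntn2 was not tested. In the choroid plexus, where the shares among all genes were 5.15% and 24.1%, 7 partner genes were tested and 2 were higher past 1.5-fold, with 4 above by interval and a median of 0.22. Cntnap2, the binding partner of Cntn2, had 29.4 and 72.6 CPM (1.30, 1.13 to 1.48) and Amigo1, an adhesion protein that binds voltage-gated channels, 4.33 and 7.28 CPM (0.75, 0.22 to 1.27). The partner genes were not raised in every class. Their median was -0.10 over 10 tested in oligodendrocyte precursors and -0.10 over 3 in microglia. It was 0.03 over 7 in astrocytes, 0.07 over 8 in oligodendrocytes and 0.04 for the 1 tested in T cells. By interval 1 was above and 1 below in precursors (7.31% and 6.25% of all genes), and 2 above and 1 below in oligodendrocytes (12.2% and 8.13%). The lower one was Dlg2 in both, at -0.42 (-0.74 to -0.09) and -0.25 (-0.47 to -0.03). Lgi1, a secreted protein of the Kv1 complex, was above equal by interval in each of the 4 classes where it was tested: astrocytes (262 and 395 CPM, 0.59, 0.40 to 0.78), choroid plexus (0.54, 0.35 to 0.74), oligodendrocyte precursors (0.69, 0.18 to 1.22) and neurons (0.21, 0.06 to 0.37). Of the 7 voltage-gated sodium channel genes and 13 voltage-gated calcium channel genes tested in neurons, 0 passed 1.5-fold in either direction, and both lists had a median of 0.11. By interval 2 sodium genes were above and 1 below, and 2 calcium genes above and 2 below, where 10.3% and 9.40% of all genes were. Cacna1d was above equal by interval in the 4 classes where it was tested: neurons (0.49), astrocytes (0.63), oligodendrocyte precursors (0.60) and microglia (0.91). Past 1.5-fold lower were Cacna1s in microglia (-0.68) and Cacna2d3 in the choroid plexus (-0.60).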

How the data were processed

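The deposited values are raw counts of UMIs per gene and cell barcode, which the authors made from 3' libraries of version 3.1 chemistry. The submitters' processing notes give Seurat 4, R 4.1.3, Cell Ranger 6.0.1 and mm10 as genome build; demultiplexing was with Cell Ranger 4.0, per the labels' protocols. The sources used here do not give the gene annotation, the filters on cells and genes or the strand setting.

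Every barcode had at least 500 genes and at most 20% mitochondrial UMIs, so 0 were removed by these limits. Scrublet in scanpy 1.11.5 marked 24 wt (0.441%) and 63 GlaKO (1.38%) barcodes as doublets, which were removed. The wt share is below 0.5%, too low to say that doublet calling worked there. Both libraries were clustered together (2000 variable genes without Kcn genes, 30 principal components, 15 neighbours, Leiden resolution 1.0). A cluster took a class name where at least 3 markers had UMIs in 10% of its cells with a mean log2 fold of at least 1.0 over the median cluster and its 10 leading genes held no more markers of another type. Names were rebuilt from markers and stand for "-like". The limits of this rule follow an earlier analysis of these data, and neuron subtype lists joined the candidates after clusters were seen. The small endothelial cluster held markers of other classes.

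Within each library, a gene's UMIs in a class were added up and scaled to the class total (CPM). Ratios needed 100 cells in each library and 100 UMIs over both, and have exact conditional 95% intervals. Sums have exact Poisson and shares exact Clopper-Pearson intervals. All cover counting error only and take UMIs as independent. With 1 library per genotype no p-value was computed. Fewer transcripts per cell and a changed mix of cells within a class cannot be told apart in a sum. CPM from 3' tags was compared across classes and libraries, not between genes. Coordinates are from GENCODE M21 on GRCm38. The ratio step was tested on simulated data. Python 3.11.15, numpy 2.4.6, scipy 1.17.1 and edgeR 4.0.16 (TMM scaling alone) were used.

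The members and lists were chosen with earlier results of these data known. Genes named by rule were, per holding class, up to the 8 with the highest CPM and any past 1.5-fold; other genes were named after their values were seen. A few member genes enter the counts and medians and are not reported by name here.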

Additional observations from a re-analysis of the deposited data

Results flagged for a closer look

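Kcnq1ot1, the RNA antisense to Kcnq1, differed in direction between classes. Its log2 ratio of GlaKO over wt was 0.29 in neurons and 0.34 in oligodendrocyte precursors, where the GlaKO level was higher, and -0.34 in microglia, where it was lower. Within classes the clusters were not alike: among neurons the ratio was 0.36 in granule neurons, 0.44 in cluster 18 and -0.64 (-1.14 to -0.15) in Cajal-Retzius neurons, and with clusters weighted equally it was 0.08. In microglia it was -0.45 in cluster 4, while cluster 16 had 93.5 CPM in wt and 131 CPM in GlaKO from 14 and 32 UMIs. Each class interval excluded equal levels, but the difference between the classes was not tested.

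Kcn symbols listed for 1 library alone entered no comparison. Kcnab3, a Kv1 beta subunit, was listed for wt alone with 127 UMIs, 105 of them in the choroid plexus. For GlaKO alone 10 symbols were listed. Mostly neuronal were Kcnq5 with 134 UMIs, Kcns2 with 127, Kcng1 with 93, Kcnv1 with 93, Kcnf1 with 88 and Kcnj11 with 77, and Kcnc2 had 65 with 33 in neurons. Oligodendrocyte precursors held the most UMIs of Kcnh5 (113 in all), Kcnip1 (98) and the antisense RNA Kcnmb4os2 (93). A symbol not listed for the other library was not analysed there, so its level in it is unknown, and these differences were not tested.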

How the results depend on the processing

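No replicate could be left out, and no paired analysis was possible because each genotype has 1 library and the labels carry no replicate number. The number of genes with a holding class (47) stayed within 1.5 times under every alternative run, though the class itself was lost for 6 genes at 1000 UMIs per cell and for 3 (Kcnh2, Kcnj8 and Kcnn1) without the 4% highest doublet scores. The count higher past 1.5-fold, 1 gene as reported, was 8 at 1000 UMIs per cell (Kcne2 and 7 neuronal genes). Over all genes compared at that depth in their reported class, 10 passed 1.5-fold on 38 to 1530 UMIs, and 5 of the 10 intervals excluded equal levels. Among the 10, Kcnt2 at -0.92 (-1.99 to 0.09) and Kcnt1 at -0.69 (-1.57 to 0.15) were lower. Both had lost their holding class at that depth, so the count lower past 1.5-fold leaves them out there. The count lower past 1.5-fold, also 1, was 2 without the 4% highest doublet scores (Kcnh8 and Kcnt2). It was 0 with each library clustered alone, at 1000 UMIs per cell, with clusters weighted equally, and with 5 depth groups weighted equally, an alternative chosen after seeing the data. It was also 0 with a minimum of 500 UMIs, which left 23 genes to compare. Kcnh8, with 128 and 124 UMIs, was not among those 23, so that 0 follows from the filter and not from its ratio. Kcne2 ran from 0.61 (TMM scaling) to 0.82 (depth groups). Kcnh8 ran from -0.63 to -0.35. The sign changed under at least 1 alternative for 17 of the 45 genes, 15 of which had an interval that included equal levels. The other 2 were Kcnh2 in the choroid plexus, 0.26 (-0.54 to 1.01) at 1000 UMIs per cell, and Kcnip4 in neurons, 0.05 with clusters weighted equally. The cause was not tested. All 45 ratios stayed inside their counting interval under 7 of the 11 alternatives, and 25 did at 1000 UMIs per cell, where Kcnc4 stood at 1.08, Kcnk9 at 1.26 and Kcnk12 at -0.51. Under every alternative each class median stayed between the medians of its genes' lower and upper counting limits, -0.23 to 0.42 for neurons. That band is as wide as for a typical gene, wider than the counting spread of a median over many genes. Staying inside it therefore does not show that the medians are stable.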
